A study of Homo sapiens with 12 samples.

Results

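Protein kinase C (PKC) is a family of serine/threonine kinases, and 5 of its genes were followed here in LX-2, an immortalised line of human hepatic stellate cells (HSCs). They were PRKCD, PRKCE and PRKCH, which encode the isoforms delta, epsilon and eta of the nPKC class, and PRKCI and PRKCZ, which encode the atypical isoforms iota and zeta of the aPKC class. The 5 genes were taken by symbol from a given list of nPKC and aPKC isoforms, out of 199 genes on the nCounter Dx Stem Cell Panel. PRKCQ, another nPKC gene of the panel, was not on that list. The rule itself used no measured values, but the list was chosen with earlier results of these data known. Messenger RNA was counted in 12 samples: 3 transfected with a control mimic and 3 with a miR-25 mimic at 24 h, and the same again at 48 h. The control mimic derives from a C. elegans miRNA, both mimics were given at 10 pmol/ml, and 50 ng of RNA was used in each assay. LX-2 is a single established line, so the replicates are separate transfections and not donors. Each control sample shares its transfection efficiency with the miR-25 sample of the same replicate, and these 2 samples form a transfection pair.

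Conventional PKCs are switched on by calcium together with diacylglycerol, nPKCs by diacylglycerol without calcium, and aPKCs by neither. The aPKCs work in complexes with PAR6 and CDC42 that set cell polarity, while conventional PKCs and nPKCs pass on signals from receptors that activate phospholipase C. In the liver, PKC activity is known from the response of HSCs to growth factors and vasoactive peptides, and PKC is also 1 of the relays of noncanonical Wnt signaling. The assay measured only messenger RNA, and the activity of these kinases is controlled to a large extent after translation.

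An nCounter probe pair reads 1 stretch of 100 bases in each transcript, so the level of each gene rests on the following target sequences. They are shown because PKC genes are related in sequence and a shared stretch could let 1 probe read another gene. They were taken from the panel sheet that accompanies the study, and capitals mark the longest run that a target shares with any other PKC or protein kinase D target of the panel.
PRKCD: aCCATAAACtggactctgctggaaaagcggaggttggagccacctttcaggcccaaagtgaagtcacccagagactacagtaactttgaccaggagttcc
PRKCE: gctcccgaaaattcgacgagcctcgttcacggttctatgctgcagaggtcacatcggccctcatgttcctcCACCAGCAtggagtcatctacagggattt
PRKCH: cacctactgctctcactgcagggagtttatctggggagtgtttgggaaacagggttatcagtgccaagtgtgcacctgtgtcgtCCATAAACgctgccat
PRKCI: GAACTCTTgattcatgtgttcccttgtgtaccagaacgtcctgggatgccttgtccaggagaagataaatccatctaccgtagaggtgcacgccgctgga
PRKCZ: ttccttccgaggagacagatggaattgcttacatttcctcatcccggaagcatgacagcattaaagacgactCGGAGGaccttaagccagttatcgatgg
The longest shared run was 8 bases in 4 of the 5 targets, for example between PRKCD and PRKCH, and 6 bases in PRKCZ. Only exact runs between these windows were sought, and the rest of the related transcripts was not compared. The runs therefore cannot show whether a probe reads another PKC gene. GC content was 48% to 54%, against a median of 51% over the 193 panel targets with a sequence. The mature miR-25, taken from the RefSeq table of GRCh38.p14 (MIR25, chr7:100093571-100093592, minus strand), is shown with its seed (bases 2 to 8) in capitals.
hsa-miR-25-3p: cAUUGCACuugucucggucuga
The 7 letters complementary to this seed, GTGCAAT, were searched on the given strand and occurred in none of the 5 targets and in 0 of the 193 targets of the panel. The targets are short windows of the transcripts, and the rest of each transcript was not searched.

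Library totals over the genes ran from 321243 to 409581 counts at 24 h (median 378382.5). The 48 h totals were smaller, 107377 to 200821 (median 157184), and counting error was larger there. Levels are given as counts per 100000 gene counts of the sample. The level above which a probe was taken as detected, the mean of the 8 negative control probes plus 2 SD, was 10.2 to 16.5 counts at 24 h and 5.52 to 8.40 counts at 48 h. Mesenchymal markers (COL1A1, CDH2, CXCL12 and CD44) were above it in all samples, 4 of 4. Of the epithelial list (3 genes), GJB1 was above it in 10 of 12 samples, KRT15 in 5 and CDH1 in 1. Of the T cell list (4 genes), CD4 was above it in 11 of 12 samples and CD8A in 1, while CD3D and CD8B were above it in none. The control and miR-25 samples of replicate 1 at 48 h stood apart from the other 48 h libraries. Their counts over all genes differed from those of replicates 2 and 3 by a chi-square of 50.9 to 70.7 per degree of freedom, against 2.45 to 3.82 between replicates 2 and 3. Relative miR-25 levels in the labels were 62.34 to 350.13 times the control at 24 h and 347.45 to 681.22 times at 48 h. In the pair that stood apart the transfection efficiency was 0.42, against 0.61 and 0.65 in the other 48 h pairs. The summed mesenchymal markers were 4653 and 3776 per 100000 in its control and miR-25 sample, against 6727 to 7499 in the other 48 h samples. The comparisons of time points and of mimics are therefore also given without this pair, and the part of efficiency, depth or cell state in its values was not tested.

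All 5 PKC transcripts were present in LX-2 cells. They were above background in 12 of 12 samples. This held for 132 of the 199 genes of the panel, these 5 included. By mean level the 5 genes spanned from rank 50 to rank 124 of the 199. PRKCI, a polarity kinase, was the highest at a median of 353 per 100000 (range 306 to 522 over the 12 samples). PRKCD, which takes part in stress and apoptosis signaling, had a median of 127 (range 97.9 to 178). PRKCZ, the other polarity kinase, had a median of 74.0 (range 62.3 to 90.6). PRKCE, which promotes growth and migration in many cells, was close to it with a median of 50.1 (range 33.5 to 78.9). PRKCH, best known from epithelial differentiation, was the lowest at 15.3 (range 11.7 to 29.6), from counts of 27 to 52. At 27 counts, counting error alone amounts to a relative SD of 19.2%, against 4.61% at the lowest PRKCI count of 470.

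The order PRKCI, PRKCD, PRKCZ, PRKCE, PRKCH held in 10 of 12 samples. In the control samples of replicates 2 and 3 at 48 h, PRKCE lay above PRKCZ, and in that group the ranges of these neighbours overlapped. In the other 3 groups no ranges of neighbouring genes overlapped. The gap was narrowest between PRKCE and PRKCH in the miR-25 samples at 48 h, where the lowest PRKCE level was 33.5 and the highest PRKCH level 29.6. Each gene is read by a single probe pair whose efficiency is unknown, so this order is a description of counts and was not tested.

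**Figure D1:**
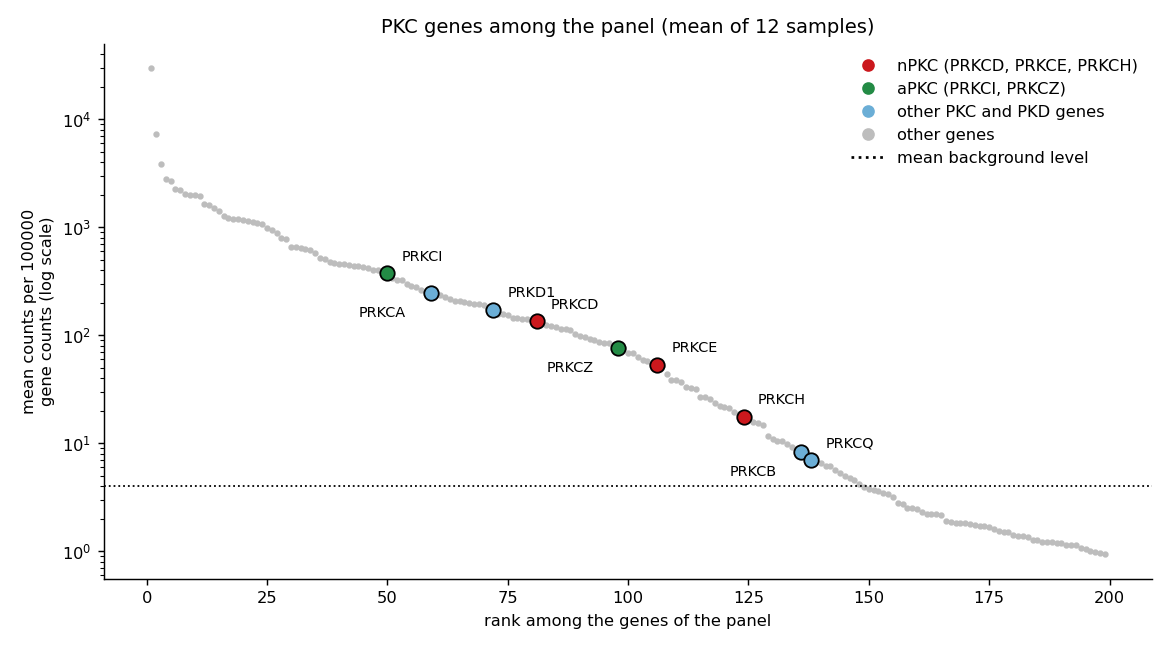
Mean counts per 100000 gene counts over the 12 samples (log scale) against the rank of each of the 199 genes. The nPKC (red) and aPKC (green) genes lie between rank 50 (PRKCI) and rank 124 (PRKCH), above the mean background level (dotted line). Other PKC and PKD genes are blue.

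Some other kinases of the family on the panel placed these levels in context. PRKCA, the conventional isoform alpha, ranked 59 with a median of 242 per 100000, between PRKCI and PRKCD. PRKD1, a kinase activated by nPKCs, ranked 72 with a median of 161. PRKCB, the conventional isoform beta, was above background in 11 of 12 samples and PRKCQ, the nPKC isoform theta of T cells, in 10 of 12, with medians of 8.63 and 6.82 per 100000.

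The levels at 24 h spread less between replicates than those at 48 h for PRKCI, PRKCE and PRKCH. Replicate 1 also stood apart at 24 h over all genes, though less, with a chi-square of 11.9 to 14.9 per degree of freedom against 2.84 to 2.92 between replicates 2 and 3. For control replicates 1, 2 and 3, PRKCI was 335, 378 and 378 per 100000, and in the miR-25 samples it was 345, 361 and 364. PRKCD was 97.9, 111 and 126 in the control samples and 101, 120 and 128 in the miR-25 samples. PRKCZ was 62.3, 73.2 and 87.2 in the control samples and 65.7, 80.9 and 70.5 in the miR-25 samples. For each of these 3 genes the ranges of both treatments overlapped, and replicate 1 gave the lowest level in both treatments. PRKCE was 41.5, 46.4 and 56.3 in the control samples and 38.8, 48.0 and 47.1 in the miR-25 samples. PRKCH was 12.9, 12.5 and 15.9 in the control samples and 11.7, 13.1 and 12.8 in the miR-25 samples. Control replicate 3 was the highest 24 h sample for PRKCZ, PRKCE and PRKCH.

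At 48 h the spread between replicates was wider for PRKCI, PRKCE and PRKCH, for PRKCI and PRKCE mainly through replicate 1. The SD of PRKCD rose from 14.1 to 19.5 per 100000 in the control samples and fell from 13.7 to 9.98 in the miR-25 samples. That of PRKCZ changed little. PRKCI was 522, 334 and 337 per 100000 in the control samples and 508, 306 and 316 in the miR-25 samples, so replicate 1 was the highest in both treatments. PRKCH was 27.9, 19.2 and 14.7 in the control samples and 29.6, 22.6 and 16.9 in the miR-25 samples, again with replicate 1 the highest. PRKCE went the other way, at 52.2, 78.9 and 74.2 in the control samples and 33.5, 61.0 and 63.7 in the miR-25 samples. Replicate 1 thus had the lowest PRKCE level of the 48 h samples in each treatment. PRKCD was 123, 149 and 161 in the control samples and 158, 178 and 165 in the miR-25 samples. PRKCZ was 88.5, 64.7 and 68.2 in the control samples and 74.7, 80.5 and 90.6 in the miR-25 samples. Replicate 1 was the lowest for PRKCD in both treatments, while for PRKCZ it was the highest control sample and the lowest miR-25 sample.

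**Figure D2:**
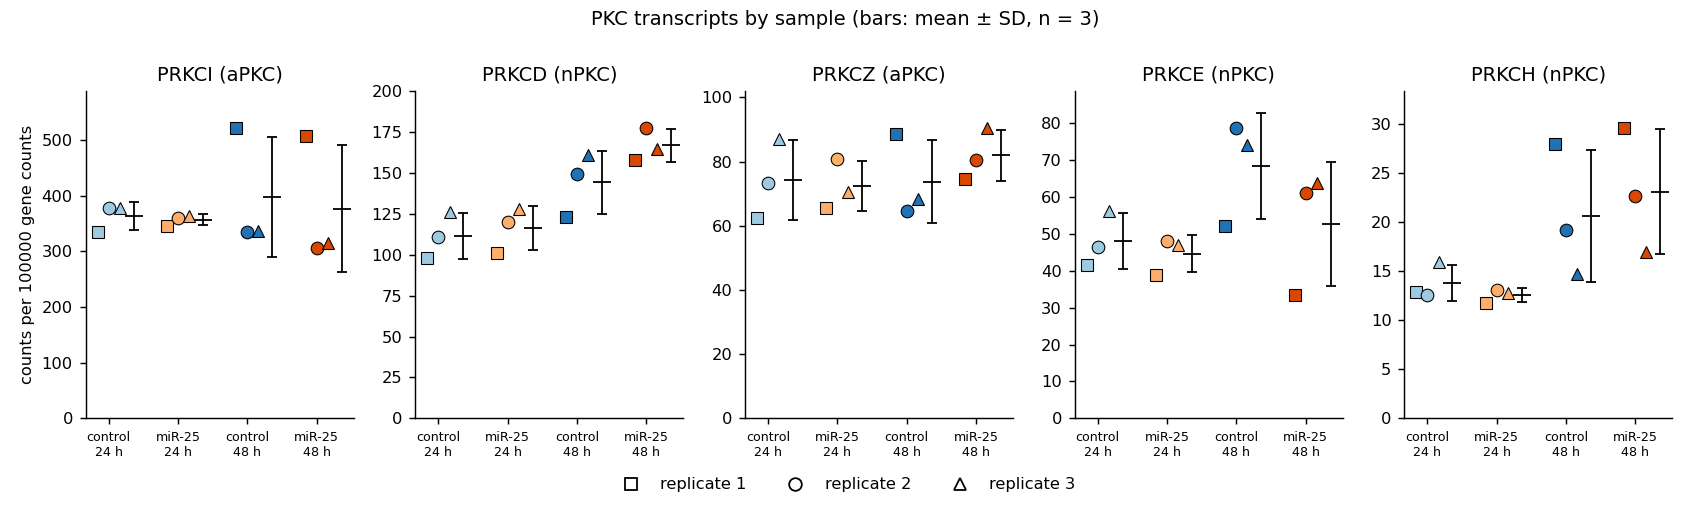
Counts per 100000 gene counts of each gene in the 12 samples, with symbols for the replicate number (not taken as pairs across 24 h and 48 h) and bars for the mean ± SD of 3 samples. PRKCI at 48 h shows replicate 1 (squares) at 522 and 508 and the other samples at 306 to 337, while PRKCE shows replicate 1 lowest in both treatments at 48 h.

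The balance of nPKC to aPKC transcripts among the 5 genes was taken as the ratio of summed counts within each sample. This ratio does not depend on the library total. In the control samples at 24 h, replicates 1, 2 and 3 gave 0.383, 0.376 and 0.427. The miR-25 samples at 24 h gave 0.370, 0.411 and 0.432. At 48 h the ratio was 0.332, 0.620 and 0.616 in the control samples and 0.380, 0.676 and 0.604 in the miR-25 samples. Summed aPKC counts thus exceeded nPKC counts in all 12 samples. In 4 samples of 48 h, replicates 2 and 3 of both treatments, the ratio lay above all 24 h samples, and in both replicate 1 samples it lay within or below the 24 h range. On the log2 scale, the mean at 48 h minus the mean at 24 h was 0.35 in the control samples and 0.41 in the miR-25 samples. The SD of single samples, pooled over the time points, was 0.37 and 0.32. Without replicate 1 of 48 h the differences of the means were 0.65 and 0.66. No test was made of this ratio, since it is a score over a chosen set of genes. As every gene counts by its abundance, it follows PRKCI and PRKCD above all.

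The make-up of the summed PKC count showed which genes made this difference. PRKCI held 56.9% to 61.3% of it at 24 h, 64.2% and 63.2% in the control and miR-25 samples of replicate 1 at 48 h, and 47.2% to 51.7% in the other 48 h samples. PRKCD held 17.8% to 20.6% at 24 h and 23.1% to 27.4% in replicates 2 and 3 at 48 h. In replicate 1 at 48 h its share was 15.1% in the control and 19.7% in the miR-25 sample. PRKCE, with 6.90% to 8.50% at 24 h, held 9.41% to 12.2% in replicates 2 and 3 at 48 h but 6.41% and 4.16% in replicate 1. PRKCZ stayed between 9.29% and 13.9% in all samples.

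**Figure D3:**
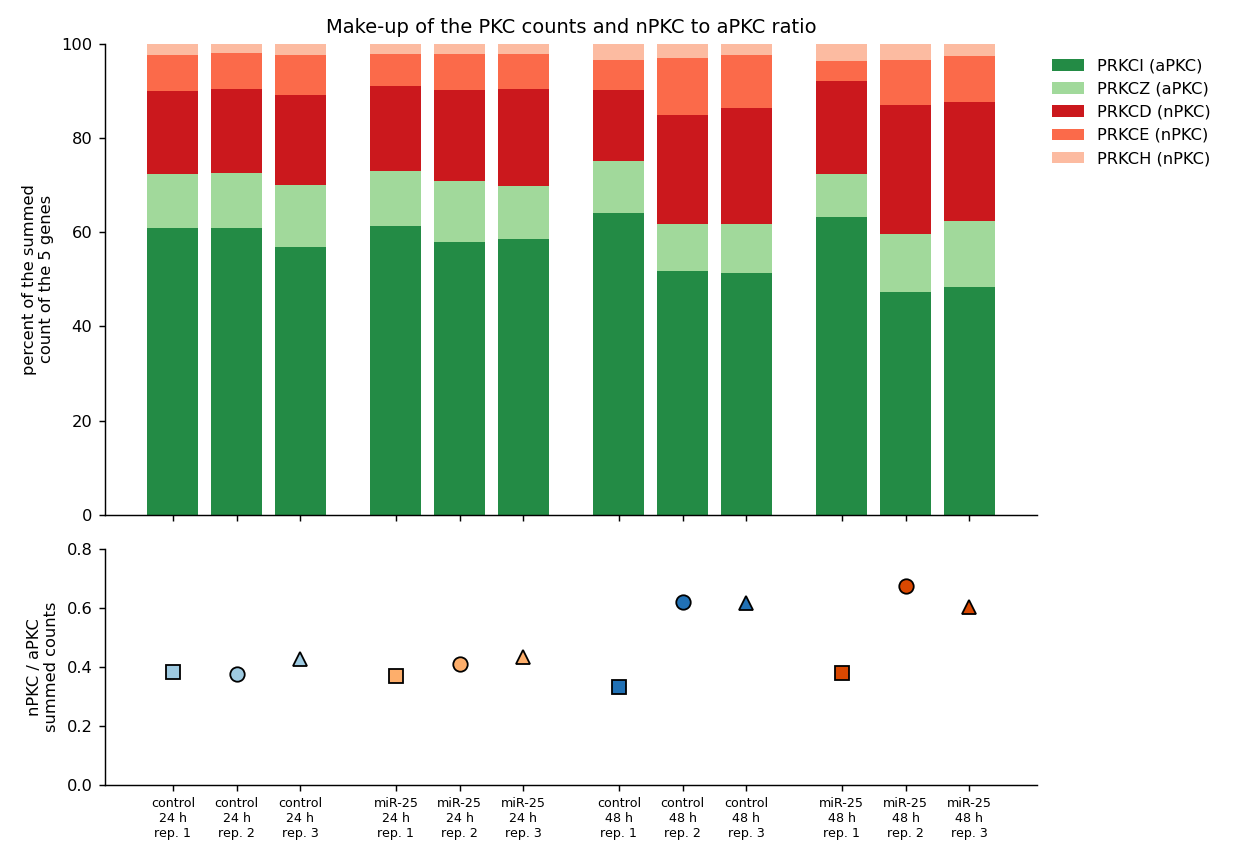
Upper panel, percent of the summed count of the 5 genes held by each gene in each sample; lower panel, summed nPKC over summed aPKC counts per sample. Replicates 2 and 3 at 48 h reach 0.604 to 0.676, and the other 8 samples lie between 0.332 and 0.432.

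Levels at 48 h were compared with those at 24 h in the control samples and in the miR-25 samples separately, with edgeR's quasi-likelihood test and Benjamini-Hochberg adjustment over 136 genes (mean count of at least 20). In the control samples none of the 5 PKC genes passed, where 5.15% of all genes tested did (2.94% as higher), and 2 of the 5 had an unadjusted p under 0.05, against 30.9% of all genes. The log2 fold change was 0.52 (SE 0.20, edgeR adjusted p = 0.130) for PRKCE, 0.38 (SE 0.15, edgeR adjusted p = 0.139) for PRKCD and 0.55 (SE 0.27, edgeR adjusted p = 0.203) for PRKCH. The aPKC genes were near the median of all genes, 0.13, or below it, with 0.12 (SE 0.19) for PRKCI and -0.02 (SE 0.18) for PRKCZ. In the miR-25 samples PRKCD rose by 0.52 on the log2 scale (SE 0.12, edgeR adjusted p = 0.0499), with 7.35% of all genes called (2.94% as higher). Before adjustment p was under 0.05 for PRKCD and PRKCH, against 31.6% of all genes. The 24 h and 48 h ranges of PRKCD did not overlap in these samples, nor did those of PRKCH, against 41.2% of all genes tested. The value of PRKCH was 0.87 (SE 0.26, edgeR adjusted p = 0.0909), and those of PRKCE, PRKCZ and PRKCI were 0.25 (SE 0.25), 0.18 (SE 0.14) and 0.08 (SE 0.20). In the control samples the ranges of all 5 genes overlapped, where those of 35.3% of all genes did not.

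The PRKCD call lay at the threshold, and 5 of the 8 other settings that kept all samples did not make it. Scaling to 5 reference genes, which moved the median of all genes from 0.09 to -0.04, gave 0.39 for PRKCD (edgeR adjusted p = 0.122) and turned PRKCI to -0.06. GAPDH, the largest of the 5 reference genes, also held 26.9% to 33.4% of the total gene counts, so this scale and the total are not independent. With the replicate number as a block PRKCD had 0.52 (edgeR adjusted p = 0.0698). The call was also lost when any 1 of the 3 miR-25 samples of 24 h, or replicate 2 or 3 of 48 h, was left out, with values between 0.43 and 0.59. Depth differs between the time points in every replicate. The summed counts of the 6 positive control probes differed too, with 76248 to 87475 at 24 h and 51306 to 59004 at 48 h. Time, depth and the yield of these control probes therefore cannot be told apart.

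Without replicate 1 of 48 h, more PKC genes passed, as did more genes of the panel. Among the control samples PRKCE rose by 0.67 (SE 0.17, edgeR adjusted p = 0.0132) and PRKCD by 0.48 (SE 0.14, edgeR adjusted p = 0.0231), with 39.7% of all genes called (27.2% as higher). In the miR-25 samples PRKCD rose by 0.56 (edgeR adjusted p = 0.00534), PRKCE by 0.49 (edgeR adjusted p = 0.0232) and PRKCH by 0.64 (edgeR adjusted p = 0.0422), with 45.6% of all genes called (27.9% as higher). These shares of the whole panel are large, and 2 or 3 of 5 members called is read against them. Neither aPKC gene passed in either kind of sample. PRKCI was at -0.12 in the control samples and at -0.20 (edgeR adjusted p = 0.0554) in the miR-25 samples, so its sign turned in both when the replicate was left out. Both time comparisons rest on different samples but on the same 24 h and 48 h transfections.

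**Figure D4:**
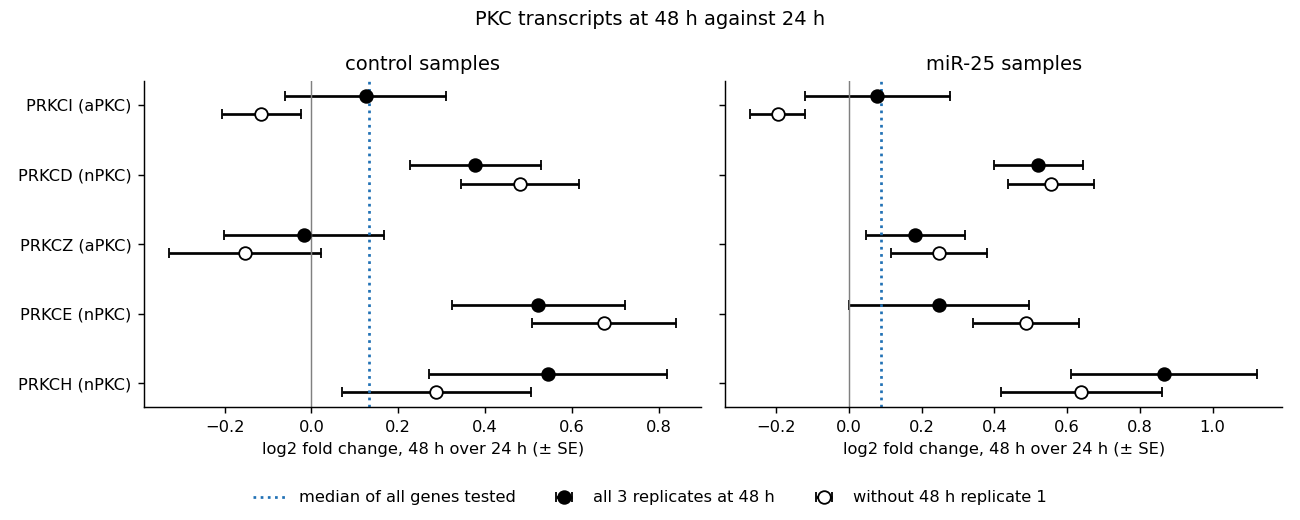
Log2 fold change of 48 h over 24 h (± SE) for each gene in control samples (left) and miR-25 samples (right), with all replicates (filled) and without replicate 1 of 48 h (open). The nPKC genes PRKCD, PRKCE and PRKCH lie right of the median of all genes tested with all replicates (dotted) in both panels. The aPKC gene PRKCZ also lies right of it in the miR-25 panel, at 0.18 and, without replicate 1, 0.25. PRKCI moves from 0.12 to -0.12 and from 0.08 to -0.20.

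Among the other PKC and PKD genes, the conventional gene PRKCA had log2 values of opposite sign to those of PRKCD, PRKCE and PRKCH. The PRKCA values were -0.48 (SE 0.22, edgeR adjusted p = 0.176) in the control samples and -0.57 (SE 0.16, edgeR adjusted p = 0.0909) in the miR-25 samples. PRKCB and PRKD1 did not pass either. The nPKC gene PRKCQ had a mean count of 19.7, under the minimum of 20, and was not tested. Its mean level was 6.87 per 100000 at 24 h and 6.71 at 48 h in the control samples. In the miR-25 samples it was 9.10 and 5.31, so PRKCQ did not share the higher 48 h means of the other nPKC genes. Its counts were low, 1 to 43. In replicate 1 at 48 h PRKCA was at 132 and 162 per 100000 in the control and miR-25 sample, against 215 to 234 in the other 48 h samples, and PRKD1 was at 251 and 228, against 147 to 171. PRKD1 thus shared with PRKCI and PRKCH its highest 48 h levels in that pair, and like PRKCD and PRKCE, PRKCA was lowest there within each treatment at 48 h. Of the 19 noncanonical Wnt genes on the panel, 16 were tested. In the control samples 0 passed as higher and 1 as lower at 48 h, against 4 and 3 of all 136 genes tested. The gene was WNT5B, a ligand gene, with -1.55 (SE 0.25, edgeR adjusted p = 0.0140). In the miR-25 samples 0 passed as higher and 2 as lower, against 4 and 6 of all 136 genes tested. These were WNT5B with -1.46 (SE 0.21, edgeR adjusted p = 0.0163) and the receptor gene FZD7 with -0.61 (SE 0.10, edgeR adjusted p = 0.0260). Neither of the 2 tested genes for catalytic subunits of PKA, the cyclic AMP-dependent kinase, passed.

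The effect of the mimic was taken as the ratio of miR-25 to control within each transfection pair. PRKCD lay above 1 in 6 of 6 pairs with total counts as the scale, but in 5 of 6 with TMM scaling (0.984 in replicate 1 at 24 h) and with reference genes (0.995 in replicate 3 at 48 h). Its ratios nearest to 1 with total counts were those of replicate 3, 1.01 at 24 h and 1.02 at 48 h. PRKCE lay below 1 in 5 of 6 pairs under each of these scalings. Its 24 h ratios were 0.934, 1.04 and 0.835 in replicates 1, 2 and 3, and its 48 h ratios 0.642, 0.773 and 0.859. Their means were 0.935 ± 0.0999 (SD, n = 3 pairs) at 24 h and 0.758 ± 0.109 (SD, n = 3 pairs) at 48 h. The nPKC isoforms delta and epsilon therefore lay on opposite sides of 1 at 48 h in each of the 3 pairs, or in 2 of 3 with reference genes. PRKCH, the third nPKC gene, had 24 h ratios of 0.911, 1.04 and 0.806 and 48 h ratios of 1.06, 1.18 and 1.15. Its mean moved from 0.920 ± 0.120 to 1.13 ± 0.0624 (SD, n = 3 pairs each), from counts of at most 52.

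The aPKC genes differed from each other in spread. PRKCI, with the highest counts, had 24 h ratios of 1.03, 0.953 and 0.963 and 48 h ratios of 0.972, 0.917 and 0.936, so 5 of 6 pairs lay slightly below 1, and 6 of 6 with TMM scaling. PRKCZ had 24 h ratios of 1.05, 1.10 and 0.809 and 48 h ratios of 0.844, 1.24 and 1.33, and fell on both sides of 1 at each time point. Their means at 48 h were 0.942 ± 0.0280 for PRKCI and 1.14 ± 0.259 for PRKCZ (SD, n = 3 pairs each). Without replicate 1 of 48 h the mean ratios were 1.11 for PRKCD, 0.816 for PRKCE, 1.16 for PRKCH, 0.927 for PRKCI and 1.29 for PRKCZ. At 48 h, with total counts as the scale, all 3 pairs lay on the same side of 1 for 4 of 5 genes, all but PRKCZ, against 35.3% of all genes tested. At 24 h this was so for PRKCD alone (31.6% of all genes), and over all 6 pairs again for PRKCD alone (6.62% of all genes), which TMM scaling turns to PRKCI alone and reference genes to none of the 5.

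**Figure D5:**
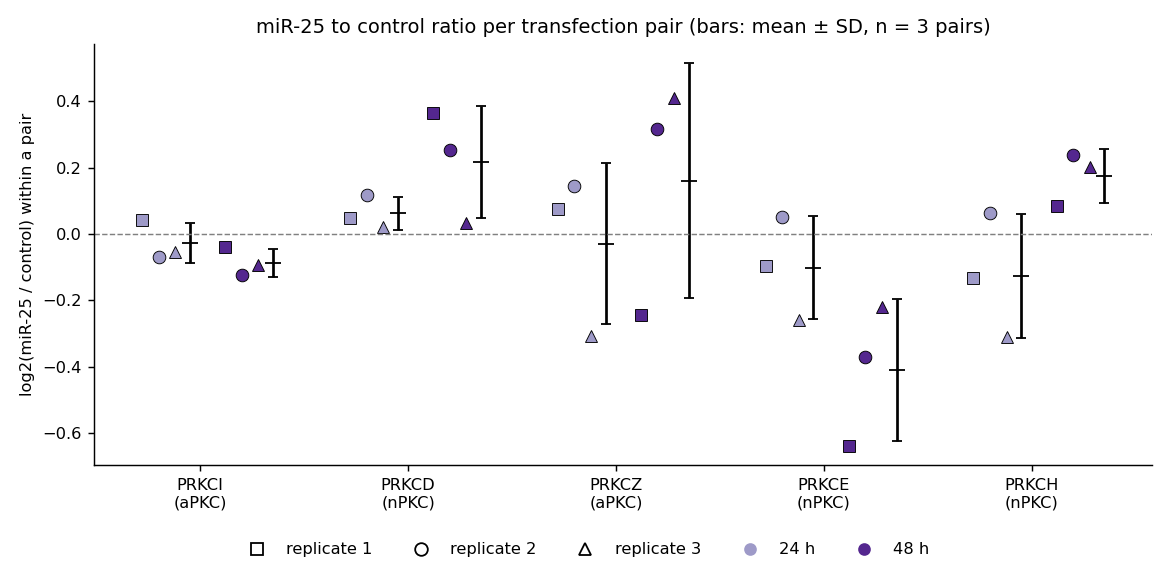
Log2 ratio of miR-25 to control within each transfection pair at 24 h (light) and 48 h (dark), with bars for the mean ± SD of 3 pairs. With total counts as the scale PRKCD lies above 0 in all 6 pairs (5 of 6 with TMM scaling or reference genes), PRKCE below 0 in 5 of 6, and PRKCZ on both sides at each time point.

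No PKC gene passed the edgeR quasi-likelihood test of miR-25 against control. At 24 h 0 of 5 passed and 0 of all genes tested did (0%), and at 48 h 0 of 5 passed, where 0.735% of all genes did. The same held with both time points in 1 comparison and for the change in effect between them (0 of 5, against 0% of all genes each). Before adjustment 2 of 5 had p under 0.05 at 48 h and over both time points, PRKCD and PRKCE in each, against 12.5% and 15.4% of all genes. At 24 h and for the change in effect it was 0 of 5, against 6.62% and 5.88%. At 48 h the log2 fold change was -0.36 for PRKCE (SE 0.12, edgeR adjusted p = 0.203) and 0.19 for PRKCD (SE 0.08, edgeR adjusted p = 0.310). The values of PRKCZ, PRKCH and PRKCI at 48 h were 0.19 (SE 0.14), 0.17 (SE 0.18) and -0.08 (SE 0.05). Without replicate 1 of 48 h these estimates moved. PRKCZ was then at 0.37 (SE 0.15, edgeR unadjusted p = 0.0122, adjusted p = 0.321), about as far from 0 as PRKCE with all pairs. PRKCE was at -0.29 (edgeR unadjusted p = 0.0585, adjusted p = 0.723) and PRKCD at 0.13 (edgeR unadjusted p = 0.200, adjusted p = 0.785). Over both time points without that pair, the unadjusted edgeR p was 0.0493 for PRKCE and 0.143 for PRKCD, with adjusted p of 0.355 and 0.613. PRKCH and PRKCI were at 0.22 and -0.11 at 48 h without it. At 24 h, with all pairs, the 5 values lay between -0.13 (PRKCH) and 0.06 (PRKCD). The effect at 48 h minus that at 24 h was largest in size for PRKCH, 0.30 (SE 0.23, edgeR adjusted p = 0.855), and was -0.25 (SE 0.15, edgeR adjusted p = 0.781) for PRKCE. For PRKCZ it was 0.22 (SE 0.17), and 0.40 (SE 0.17, edgeR unadjusted p = 0.0201, adjusted p = 0.456) without replicate 1 of 48 h. By DESeq2, limma and each other fit 0 of 5 passed as well. A missed threshold with 3 pairs does not show that these genes were unaffected.

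An exact two-sided sign-flip permutation test over the 6 pairs gave an unadjusted p of 0.03125 for PRKCD, 0.0625 for PRKCE, 0.09375 for PRKCI, 0.59375 for PRKCZ and 0.8125 for PRKCH. The value of PRKCD is the smallest p that such an exact test can give with 6 pairs, and with the 3 pairs of 1 time point the smallest is 0.25. The exact p of PRKCD was 0.09375 with TMM scaling and 0.0625 with reference genes, and that of PRKCI was 0.03125 with TMM scaling. In the fit over all genes neither passed adjustment. The study corrected its ratios for transfection efficiency, dividing or multiplying by it according to the side of 1 on which the mean of a time point lay and leaving means near 1 as they were. Single pairs can cross 1 in this step, as PRKCZ did in replicate 1 at 48 h (0.844 before, 2.01 after). With that correction the 48 h means were 2.20 for PRKCD, 2.08 for PRKCH and 2.03 for PRKCZ, and 0.433 for PRKCE and 0.525 for PRKCI.

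The nPKC to aPKC ratio differed little between mimics, by a log2 difference of 0.03 (SD of pairs 0.09) at 24 h and 0.10 (SD of pairs 0.11) at 48 h. With each gene given the same weight the 48 h value was -0.04. Of the other family genes, PRKCA, PRKCB and PRKD1 also did not pass in any of these comparisons, and neither did any noncanonical Wnt or PKA gene tested.

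The genes most like each member over the 12 samples were found by Pearson's r of log2 levels among the other 135 genes tested. These correlations are a description, since the 12 samples share 6 transfections, 2 time points with different depth and the replicate that stood apart. NUMBL (r = 0.96) and DTX3 (r = 0.96) were closest to PRKCD, and ADAM17, a membrane sheddase (r = 0.93), and NCSTN, a gamma-secretase subunit (r = 0.92), to PRKCE. FZD3 and HDAC1 were closest to PRKCH (r = 0.94 and 0.93), FGF2 and PSEN2 to PRKCI (r = 0.94 and 0.93), and DTX2 and GLI3 to PRKCZ (r = 0.71 and 0.70). Among the PKC genes themselves r was 0.59 for PRKCH with PRKCI, 0.58 for PRKCD with PRKCH and 0.54 for PRKCD with PRKCE. It was 0.05 for PRKCE with PRKCH and -0.48 for PRKCE with PRKCI.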

How the data were processed

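The authors deposited raw counts per probe of the nCounter Dx Stem Cell Panel, read with the Digital Analyser, without background correction or scaling. Gene names came from the study's panel sheet for 193 identifiers and from a RefSeq table of GRCh38.p14 for 6. The members and gene lists were chosen with earlier results of these data known. Named were the 5 members, 4 other PKC and PKD genes, the 2 genes most correlated with each member, genes of the noncanonical Wnt and PKA lists that passed a test, cell markers and reference genes.

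Counts were divided by the total over the genes and multiplied by 100000. Tests used edgeR 4.0.16 (quasi-likelihood, R 4.3.3) with total library sizes, a minimum mean count of 20 (136 of 199 genes) and Benjamini-Hochberg adjustment at 0.05. The SE printed or drawn with an edgeR value was derived from this test. It is the size of the log2 fold change divided by the square root of the F statistic. The mimics were compared in 1 fit of 12 samples with the transfection pair as a block, since both samples of a pair share an efficiency in the labels, and their deviations from the group means correlated at 0.282 to 0.892. Time points were compared within the 6 control or the 6 miR-25 samples without a block. Replicates are separate transfections of 1 line, so p-values measure the spread between these. Alternatives were scaling by TMM or to the summed counts of TUBB, HPRT1, GUSB, GAPDH and CLTC, no filter, DESeq2 1.42.0, limma 3.58.1 (log2 of the scaled count plus 1), background subtraction, other blocks or samples in the fit, each replicate left out, and the study's correction for transfection efficiency. The fits were also run on simulated counts that held no pair effect and no replicate standing apart. Such counts cannot show how the fits behave on these libraries. Counting SDs cover counting error only. One item is not reported here.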

Additional observations from a re-analysis of the deposited data

How the results depend on the processing

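No PKC gene passed in any comparison of miR-25 with control, whether with other scaling, DESeq2, limma, no filter, background subtraction, no replicate block (0 called), 1 time point alone or a pair left out (0 to 0). In the time comparison of the control samples 0 passed under each setting, the replicate block included, apart from 2 without control replicate 1 of 48 h (range with 1 replicate left out 0 to 2). In the miR-25 samples the 1 PKC gene called, PRKCD, became 0 with reference genes, no filter, limma, background subtraction and the replicate block, and 2 with DESeq2 and with all 12 samples in 4 groups, PRKCH being the other. With 1 replicate left out the count was 0 to 3. Samples of the same replicate number carry the same letter in their titles at both time points, but different transfection efficiencies. Their deviations from the group means correlated at -0.08 to 0.07 across time points. With 3 samples per group this cannot decide whether they share an experiment, and the main fit did not pair them. The replicate block lowered the genes called over the panel from 7 and 10 to 0 in the control and miR-25 samples.

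The nPKC to aPKC log2 difference between 48 h and 24 h was 0.20 to 0.65 in the control samples and 0.25 to 0.66 in the miR-25 samples with 1 replicate left out, the highest values being those without replicate 1 of 48 h. Between mimics it was -0.02 to 0.07 at 24 h and 0.05 to 0.16 at 48 h, and -0.043 at 48 h with each gene weighted the same.

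The correction for transfection efficiency moved the mean ratio from 1.04 to 1.48 (24 h) and from 1.17 to 2.20 (48 h) for PRKCD, from 0.935 to 0.668 and from 0.758 to 0.433 for PRKCE, from 0.920 to 0.658 and from 1.13 to 2.08 for PRKCH, from 0.942 to 0.525 at 48 h for PRKCI, and from 1.14 to 2.03 at 48 h for PRKCZ. It multiplies or divides by the efficiency according to the side of 1 on which the mean lies. With the side taken from the 48 h mean, an alternative chosen after seeing the data, the 24 h ratios were 1.31 for PRKCH, 0.701 for PRKCI and 1.42 for PRKCZ.

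Some signs turned, all in values that did not pass the test. For miR-25 against control these were PRKCH over both time points (0.023 with limma, 0.011 with background subtraction, 0.015 without the replicate block), PRKCA at 48 h (-0.012 with reference genes) and PRKD1 at 48 h (0.0049 with limma). PRKCI at 48 h against 24 h in the miR-25 samples was -0.055 with reference genes. For miR-25 against control at 48 h PRKCZ was 0.041 to 0.37 with 1 pair left out, the highest without replicate 1. Leaving out 1 pair gave -0.12 to 0.11 for PRKCZ at 24 h, -0.045 to 0.066 for PRKCH and -0.012 to 0.15 for PRKCZ over both time points, and for 48 h -0.073 to 0.10 for PRKCA, -0.030 to 0.87 for PRKCB and -0.10 to 0.060 for PRKD1. The difference between time points was -0.17 to 0.0010 for PRKCA and -0.18 to 0.72 for PRKCB. Leaving out 1 sample gave, for 48 h against 24 h, -0.12 to 0.24 for PRKCI and -0.15 to 0.12 for PRKCZ in the control samples, and -0.20 to 0.21 for PRKCI and -0.56 to 0.045 for PRKCB in the miR-25 samples. The cause was not tested. Of the member log2 fold changes under these settings, 381 kept direction and side of the threshold, 13 reversed, 6 became called and 10 lost the call, all 10 of them PRKCD at 48 h against 24 h in the miR-25 samples. The 48 h totals limit what can be seen for PRKCH, at 27 to 46 counts.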
